A study of Homo sapiens with 18 samples.

Results

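MDA-MB-231 cells, an established human breast cancer line, were sequenced with and without 48 h of 0.6 µM doxorubicin in the control arm of a transient overexpression experiment. The 4 libraries were chosen by their sample labels, 2 with doxorubicin and 2 without, out of 18 in the series. The study asks what the chromatin reader ZMYND8 does in breast cancer cells under this drug. Poly(A) RNA was measured, and the values are counts of read pairs per gene. The labels call the control cells untreated, while the protocol speaks of empty vector and of vehicle, so which of these they received is not known. Doxorubicin was added 24 h after transfection. Another 2 libraries of this system, labelled as transfected with Flag-ZMYND8 and given the same drug, dose and time, entered the fit only to help estimate the spread. The remaining 12 libraries come from lines with doxycycline-inducible GFP or ZMYND8 (250 ng/mL doxycycline), of which 4 serve as a comparison near the end: GFP cells without doxorubicin and GFP cells after 48 h of 0.6 µM. As a model, all 4 libraries represent 1 line in culture at 1 dose and 1 time, with 2 biological replicates per condition according to the protocol.

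Doxorubicin is an anthracycline that slides between DNA base pairs and traps topoisomerase II on the DNA strands it has cut, which leaves double-strand breaks. Cells with such breaks activate checkpoint kinases and can raise inhibitors of the cell cycle such as CDKN1A. Genes for DNA replication are switched on by E2F factors as cells enter S phase, and genes for mitosis follow in G2 under FOXM1 and MYBL2.

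The depth was 5858550 and 5904185 counts in the controls and 5729294 and 24713822 counts in the doxorubicin libraries, so the second doxorubicin library held about 4 times as many counts as any other of the 4. It had at least 1 count for 33986 genes, against 22872 to 24143 in the other libraries. Transcripts of the mitochondrial genome took 7.37% and 3.79% of the counts in the controls and 6.76% and 4.34% with doxorubicin. The first library of each group was thus the higher in mitochondrial RNA, and the groups overlapped. Cytosolic ribosomal protein genes took 4.06% and 2.74% in the controls and 2.66% and 2.33% with doxorubicin. The counts do not separate the strands: over 406 pairs of overlapping genes, the antisense gene had 1.48 to 1.55 times the density of its sense partner in these 4 libraries, against 0.0761 to 0.102 times in the inducible libraries. A gene with an exon opposite another gene's exon therefore holds reads of both, which applies to 47.8% of the tested genes and is stated beside many of the genes below. It also applies to ZMYND8, VIM, CDH1, CD44, ZEB1, KMT2A, COL1A1, FOXA1, TWIST1, MCM2, TOP2B, ATM, ATR, CHEK2, PLK1, MDM2, BBC3, CDKN2A, VEGFA, RSAD2 and ISG15. Replicate 2 of doxorubicin and replicate 2 of the cells labelled Flag-ZMYND8 with the drug were almost the same library beyond depth, with a chi-square per degree of freedom of 1.39 over 17816 genes, where 1 is counting error alone. The other 14 pairs among the 6 libraries gave 9.71 to 55.6, with 22.7 for the controls and 17.7 for the doxorubicin pair. ZMYND8 itself, with the reads of an overlapping gene included, stood at 123 CPM (counts scaled to depth by TMM factors) in the second doxorubicin library and at 159.8 and 125 CPM in the libraries labelled ZMYND8, which shows no excess in the cells labelled as overexpressing it. Results are given with and without the second doxorubicin library for these reasons.

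The labelled cell type was checked against marker genes. Each of 10 genes of the basal breast line list was above 1 CPM in the controls, led by the intermediate filament gene VIM with a mean of 3093 CPM. Their summed level was 10520.4 and 8933 CPM in the controls and 7055 and 6078 CPM with doxorubicin, lower in both treated libraries. Among luminal breast genes, 6 of 10 were above 1 CPM, led by KRT19 at 258 CPM, while FOXA1 had 0 counts in all 4 libraries. The luminal sums were 545, 490.3, 409.6 and 429.9 CPM in the same order. Leukocyte markers summed to 3.63 and 4.52 CPM in the controls and 3.13 and 5.91 CPM with doxorubicin, with CD14 the highest at 2.99 CPM in the controls and CD3E at 0 counts. PTPRC, which encodes the leukocyte antigen CD45, had 0 and 0 counts in the controls and 3 and 33 with doxorubicin. Endothelial markers summed to 10.3, 12.7, 10.1 and 9.8 CPM with CDH5 at 0 counts, and KDR was the highest of them at a control mean of 10 CPM. Fibroblast markers summed to 13.4, 12.5, 20.3 and 17.7 CPM, with COL1A1 the highest at a control mean of 11.2 CPM and no gene at 0. What part RNA of other cells played was not tested.

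After 48 h of doxorubicin, 468 genes were higher and 337 were lower than in the controls among 15697 genes tested, by edgeR's quasi-likelihood test at a Benjamini-Hochberg adjusted p of at most 0.05. That is 5.13% of the tested genes, 2.98% higher and 2.15% lower. The higher genes had a median log2 fold change of 1.35, the lower ones a median of -1.19. At least a 2-fold change was seen in 640 of the 805 genes and at least a 4-fold change in 111. In all 805 the control and doxorubicin libraries did not overlap, which also holds for 50.4% of all tested genes. An unadjusted p of at most 0.05 was reached by 22.2% of the tested genes (11.3% higher, 10.9% lower), the share against which counts of list members at that cut are to be read. DESeq2 called 591 genes higher (3.77%) and 586 lower (3.73%). In bulk RNA, fewer cells of a type and less RNA per cell cannot be told apart. By the study's own criterion, an absolute log2 fold change of at least 1 with an unadjusted p of at most 0.05, there were 841 higher (5.36%) and 525 lower genes (3.34%), together 8.70% of those tested. Scaling by total counts in place of TMM moved the median of all genes to 0.15 and the share of higher genes among the calls from 58.1% to 78.0%, so directions are stated relative to the median gene.

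The number of calls rested on single libraries. It fell to 117 without the second doxorubicin library (102 higher, 15 lower), of which 99 and 15 were among the 468 and 337, and 0 of the 805 changed sign in that fit. Without the first doxorubicin library it was 500, and without the first control 403. In those fits an arm has 1 library, which is assumed to vary as the other groups do. The lack of sign changes follows from the choice of called genes, since the groups of all 805 did not overlap. Leaving out replicate 2 of the cells labelled ZMYND8 gave 640 calls and leaving out both second treated libraries gave 287, alternatives that were chosen after the similarity of the pair had been seen. A fit of only the 4 compared libraries called 614 of 15256 genes (4.02%), 370 higher and 244 lower. A fit with a block for the replicate number called 2410 (7.54% of genes higher, 7.81% lower), although the labels give no such pairing. With 2 libraries against 2, an exact permutation test of a single gene cannot give a two-sided p below 0.333. Of the 80 named genes that passed, 29 also passed with each of the 4 libraries left out in turn. These are called steady below, and for the others given here the libraries without which the call was lost are named.

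**Figure D1:**
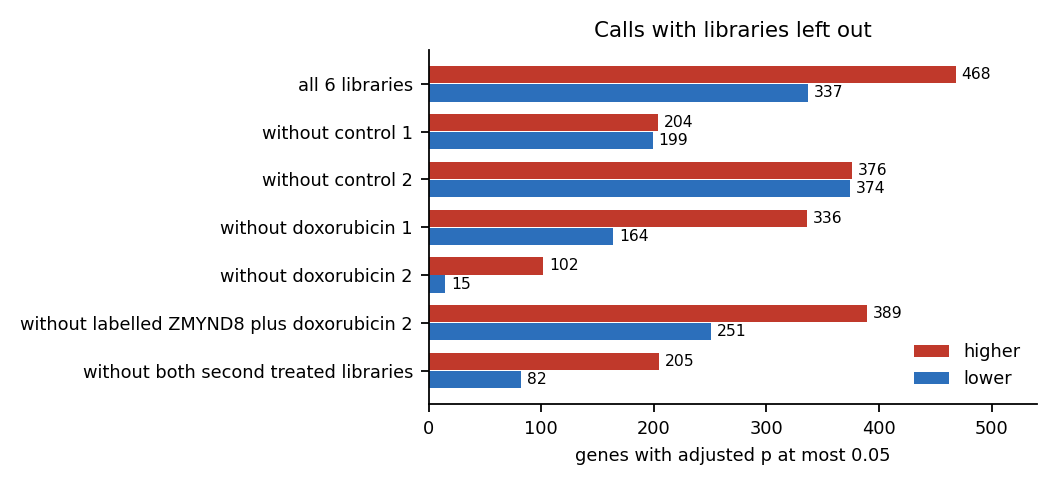
Number of genes that passed the test as higher (red) or lower (blue) in doxorubicin than in control cells, with all 6 libraries of the fit and with libraries left out. Without the second doxorubicin library the counts are 102 and 15, against 468 and 337 with all libraries.

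Of 45 genes for DNA replication, 41 were higher, 0 were lower, and the list's median log2 fold change was 1.33 against 0.00 over all tested genes. The median log2 ratio to the control mean was 1.31 in the first doxorubicin library and 1.44 in the second. E2F2, which encodes an activating E2F factor, had 3.05 and 3.65 CPM in the controls and 28.8 and 29.9 CPM with doxorubicin. By the fit the treated level was 8.72-fold that of the controls. Its log2 fold change was 3.12 with a standard error of 0.272, and edgeR's quasi-likelihood test put the adjusted p at 0.0026. RRM2, the small subunit of ribonucleotide reductase, had 71.4 and 84 CPM in the controls and 308 and 367 CPM with doxorubicin, 4.34-fold higher. GINS3, part of the GINS complex of the replicative helicase, had 8.2 and 8.18 CPM against 32 and 36 CPM, with a log2 fold change of 2.05. An exon of GINS3 lies opposite another gene. TIMELESS, which steadies the moving fork, had 37 and 41.8 CPM against 126 and 115 CPM. These 4 genes were steady, and none of their groups overlapped, as in every called gene.

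The range within the replication list ran from 0.17 to 3.12. MCM5 and MCM6 of the helicase ring had the lowest log2 fold changes, 0.17 and 0.25, and did not pass, nor did CCNE1 at 0.91 and POLE2 at 1.13. MCM2 of the same ring passed with 89.3 and 93.4 CPM in the controls and 179 and 182 CPM with doxorubicin, a log2 fold change of 0.98. PCNA, the sliding clamp, had 109 and 119 CPM against 255 and 310.2 CPM. Values of list members outside the rule for named genes, here and below, were picked after they had been seen. The count of 41 was 19 without the second doxorubicin library and 26 without the first control, with medians of 1.32 and 1.24, and the median was 1.53 without the second control. TOP2A, the topoisomerase II isoform of dividing cells and a direct target of the drug, had 342 and 359 CPM in the controls and 927 and 798 CPM with doxorubicin. Its log2 fold change of 1.30 passed edgeR's test (SE 0.211, adjusted p 0.0093) and was steady. The other 4 genes of a list of topoisomerases and related repair enzymes, TOP2B, TOP1, TDP1 and TDP2, did not pass. TOP2B, the other topoisomerase II isoform, had 147 and 184 CPM in the controls and 142 and 80.3 CPM with doxorubicin.

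Promoters of the tested genes were searched for letters known from these pathways, using 300 bases from RefSeq (build GRCh38.p14) that reach from 250 bases before the start site to 50 after it. A promoter was found for 10799 of 15697 tested genes, 351 of the 468 higher and 237 of the 337 lower ones, and both strands were read. The E2F letters TTTCCCGC or TTTGGCGC stood in 13.4% of the promoters of higher genes, 3.38% of those of lower genes and 3.75% of all. In the replication list they stood in 20 of 39 promoters, and in the recombination list in 2 of 23. The promoters of E2F2 (chr1:23531184-23531483, minus strand), GINS3 (chr16:58392221-58392520, plus strand) and FANCD2 (chr3:10026187-10026486, plus strand) are printed as examples of steady genes of these lists that hold the E2F letters, which are in capitals:
E2F2: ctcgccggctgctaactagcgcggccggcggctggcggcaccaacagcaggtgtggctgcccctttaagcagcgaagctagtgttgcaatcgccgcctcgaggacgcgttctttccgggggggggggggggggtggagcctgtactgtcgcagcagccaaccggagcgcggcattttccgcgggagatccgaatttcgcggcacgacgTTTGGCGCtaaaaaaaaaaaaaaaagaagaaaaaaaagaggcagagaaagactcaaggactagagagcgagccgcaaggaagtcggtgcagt
GINS3: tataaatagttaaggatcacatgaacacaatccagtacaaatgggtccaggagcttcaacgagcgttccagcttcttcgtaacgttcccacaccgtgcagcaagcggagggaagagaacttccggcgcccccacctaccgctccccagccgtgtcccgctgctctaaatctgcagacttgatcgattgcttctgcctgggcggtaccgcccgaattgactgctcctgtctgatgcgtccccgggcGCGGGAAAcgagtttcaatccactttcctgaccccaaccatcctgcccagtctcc
FANCD2: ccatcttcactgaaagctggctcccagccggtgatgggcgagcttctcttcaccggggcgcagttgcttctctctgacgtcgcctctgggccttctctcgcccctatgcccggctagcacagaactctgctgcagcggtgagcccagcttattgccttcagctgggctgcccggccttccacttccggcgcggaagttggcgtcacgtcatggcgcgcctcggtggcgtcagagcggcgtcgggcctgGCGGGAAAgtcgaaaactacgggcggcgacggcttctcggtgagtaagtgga
In the GINS3 and FANCD2 promoters the capitals are the E2F letters read on the other strand. A match of letters is a description and shows no binding.

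Of 26 genes of homologous recombination and the DNA damage checkpoint, 15 were higher and 0 lower, with a median log2 fold change of 1.14. BRCA1, which loads the recombinase at broken DNA, had 20.8 and 23.8 CPM in the controls and 109 and 98 CPM with doxorubicin. Its mean went from 22.3 ± 2.15 to 104 ± 7.84 CPM (SD, n = 2 each), 4.63-fold, although an exon opposite another gene adds that gene's reads. FANCD2 of the Fanconi pathway, also with an overlap on the other strand, had 30.1 and 33.1 CPM against 118 and 98.8 CPM. EXO1, a nuclease that resects DNA ends, had 12.2 and 13.6 CPM against 49.8 and 48.9 CPM. FANCI, the partner of FANCD2 and again overlapped, had 64.9 and 65.1 CPM against 171 and 169.5 CPM. In each of these 4 genes both treated libraries were above both controls, as in every gene called higher, and all were steady. The kinases at the head of the checkpoint did not pass. ATM had 95.4 and 169 CPM in the controls and 113 and 102 CPM with doxorubicin, a log2 fold change of -0.30. ATR (0.07), CHEK1 (0.46) and CHEK2 (0.78) did not pass either. The count of 15 was 8 without the second doxorubicin library, 9 without the first control and 10 without the first doxorubicin library, and 0 genes were lower in any of these fits.

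**Figure D2:**
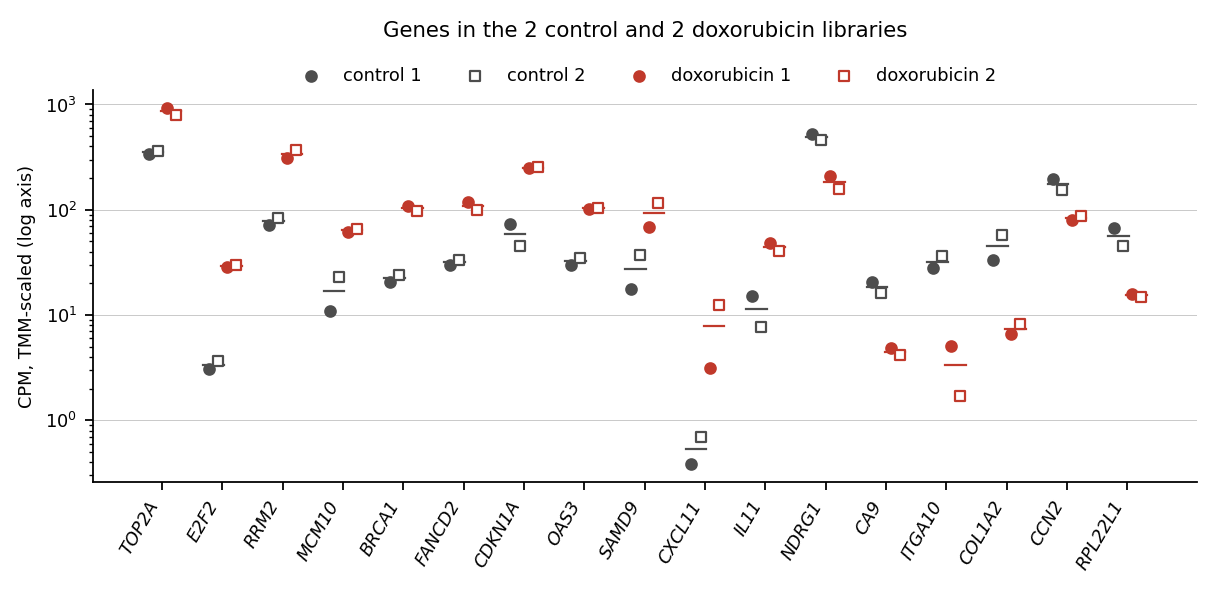
Level of 17 genes in each control (grey) and doxorubicin (red) library, in TMM-scaled CPM on a log axis. Filled circles are the first replicate, open squares the second, and short lines the group means (n = 2). In the 11 genes from TOP2A to IL11 both doxorubicin libraries lie above both controls, and in the 6 genes from NDRG1 to RPL22L1 both lie below. Such a separation holds for all 805 called genes and for 50.4% of tested genes.

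Among 34 genes of mitosis 8 were higher and 0 lower, with a median log2 fold change of 0.55, 0.76 in the first doxorubicin library and 0.39 in the second. FOXM1, a transcription factor of G2 genes whose exons overlap another gene, had 124 and 145 CPM in the controls and 331 and 319 CPM with doxorubicin. CDK1, the kinase that drives entry into mitosis, had 76.5 and 95.5 CPM against 219 and 195 CPM, a log2 fold change of 1.27. Both were steady. AURKB, the chromosomal passenger kinase, rose from 78.4 and 63 CPM to 149.5 and 155 CPM, a call lost without the second doxorubicin library. NDC80 of the kinetochore had 39.7 and 39 CPM against 77.1 and 71.7 CPM, and its call was lost without any 1 of the 4 libraries. PLK1 and CCNB1, the Polo kinase and cyclin B1 of mitotic entry, did not pass, at log2 fold changes of -0.39 and 0.15. PLK1 had 103 and 98.3 CPM in the controls and 83.7 and 70.1 CPM with doxorubicin. The count of 8 was 3 without the first control, 3 without either doxorubicin library and 15 with the replicate number as a block in the fit. The letters TTTGAA of the cell cycle homology region stood in 18 of 28 mitosis promoters (64.3%) and in 1 of 39 replication promoters (2.56%), against 9.49% of all. CCAAT stood in 75.0% of mitosis promoters, 56.4% of replication promoters and 36.4% of all.

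CDKN1A, which encodes the CDK inhibitor p21 and overlaps another gene, had 73.8 and 45.1 CPM in the controls and 251 and 253 CPM with doxorubicin. The gene was steady at 2.09 on the log2 scale, with a standard error of 0.249 and an adjusted p of 0.0046 in edgeR's quasi-likelihood test. FAS, a death receptor, had 5.91 and 4.87 CPM against 16.3 and 21.2 CPM, and POLH, a polymerase that copies past lesions, had 31.5 and 37.6 CPM against 78.7 and 70.5 CPM. FAS and POLH overlap another gene. The call of FAS was lost without the second doxorubicin library, and that of POLH without either doxorubicin library or the first control. DDB2 of nucleotide excision repair was also called higher, and its call was lost without any 1 of the 4 libraries. MDM2, which encodes a ubiquitin ligase, had 34 and 54.8 CPM in the controls and 44.6 and 53.3 CPM with doxorubicin and did not pass. BAX, GADD45A and BBC3 did not pass either, at log2 fold changes of 0.21, 0.19 and -1.0.

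Among 12 tested genes of a list that joins D-type cyclins, their kinases, CDK inhibitors and the RB family, 2 were higher and 1 was lower. CDKN2C, the CDK4 and CDK6 inhibitor p18, rose from 51.3 and 65.2 CPM to 114 and 121 CPM, a call lost without either doxorubicin library or the first control. CDKN1C, the inhibitor p57, had 27.1 and 8.35 CPM in the controls and 2.6 and 2.36 CPM with doxorubicin, with controls far apart and both treated libraries low. Its log2 fold change of -2.84 (standard error 0.548, edgeR quasi-likelihood test with adjusted p 0.017) lost its call without the first control and without the second doxorubicin library. CDKN2A and CDKN2B had 0 counts in all 4 libraries. Of 12 tested BCL2 family genes 0 passed edgeR's test and 0 passed DESeq2's, while 4 had an unadjusted p of at most 0.05 (1 higher, 3 lower). With the replicate number as a block edgeR called 2 of them lower. The list's median log2 fold change was -0.16.

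Of 25 hypoxia and glycolysis genes 11 were lower and 0 higher, while the others did not pass. The median log2 fold change was -0.94 in the fit. The median log2 ratio was -0.94 in each doxorubicin library. CA9, a carbonic anhydrase induced by low oxygen, had 20.8 and 16.2 CPM in the controls and 4.86 and 4.16 CPM with doxorubicin. ALDOC, a glycolytic aldolase, had 36.4 and 26.1 CPM against 8.86 and 6.18 CPM, a log2 fold change of -2.10. CA9 and ALDOC overlap a gene on the other strand. NDRG1, a stress-responsive gene of hypoxic cells, had 529.9 and 456 CPM against 208 and 157 CPM. The glucose transporter gene SLC2A3 had 103 and 81.1 CPM against 38.2 and 34.6 CPM. In all 4 genes both treated libraries were below both controls, as in every gene called lower. Of the 4 libraries left out in turn, only the second doxorubicin library ended these calls. The count of 11 was 1 in that fit and 5 without the first doxorubicin library, with medians of -0.93 and -0.96. The median was -1.14 without the first control and -0.62 without the second. DESeq2 called 17 genes of the list lower, and the fit with a replicate block 19. VEGFA, the angiogenic factor, followed the replicate numbers and not the treatment, with 208 and 78.1 CPM in the controls and 217 and 87.3 CPM with doxorubicin. The core letters ACGTG of the hypoxia response element stood in 11 of 21 promoters of this list (52.4%) and in 26.5% of all. The 2 genes with the largest falls in the list were ALDOC (chr17:28576846-28577145, minus strand) and CA9 (chr9:35673678-35673977, plus strand), and both hold the letters, shown in capitals as ACGTG or its reverse complement:
ALDOC: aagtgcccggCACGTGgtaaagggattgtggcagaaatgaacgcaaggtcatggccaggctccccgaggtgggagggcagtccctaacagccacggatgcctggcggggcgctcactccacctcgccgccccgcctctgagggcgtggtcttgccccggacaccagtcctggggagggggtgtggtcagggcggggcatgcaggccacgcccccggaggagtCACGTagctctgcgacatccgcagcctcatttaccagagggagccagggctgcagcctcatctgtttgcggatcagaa
CA9: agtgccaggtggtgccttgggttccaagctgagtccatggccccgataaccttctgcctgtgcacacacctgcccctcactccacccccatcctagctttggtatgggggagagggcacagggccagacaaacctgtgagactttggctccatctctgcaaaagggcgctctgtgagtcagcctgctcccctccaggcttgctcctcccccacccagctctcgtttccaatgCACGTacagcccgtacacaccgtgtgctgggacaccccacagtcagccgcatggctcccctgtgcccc

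**Figure D3:**
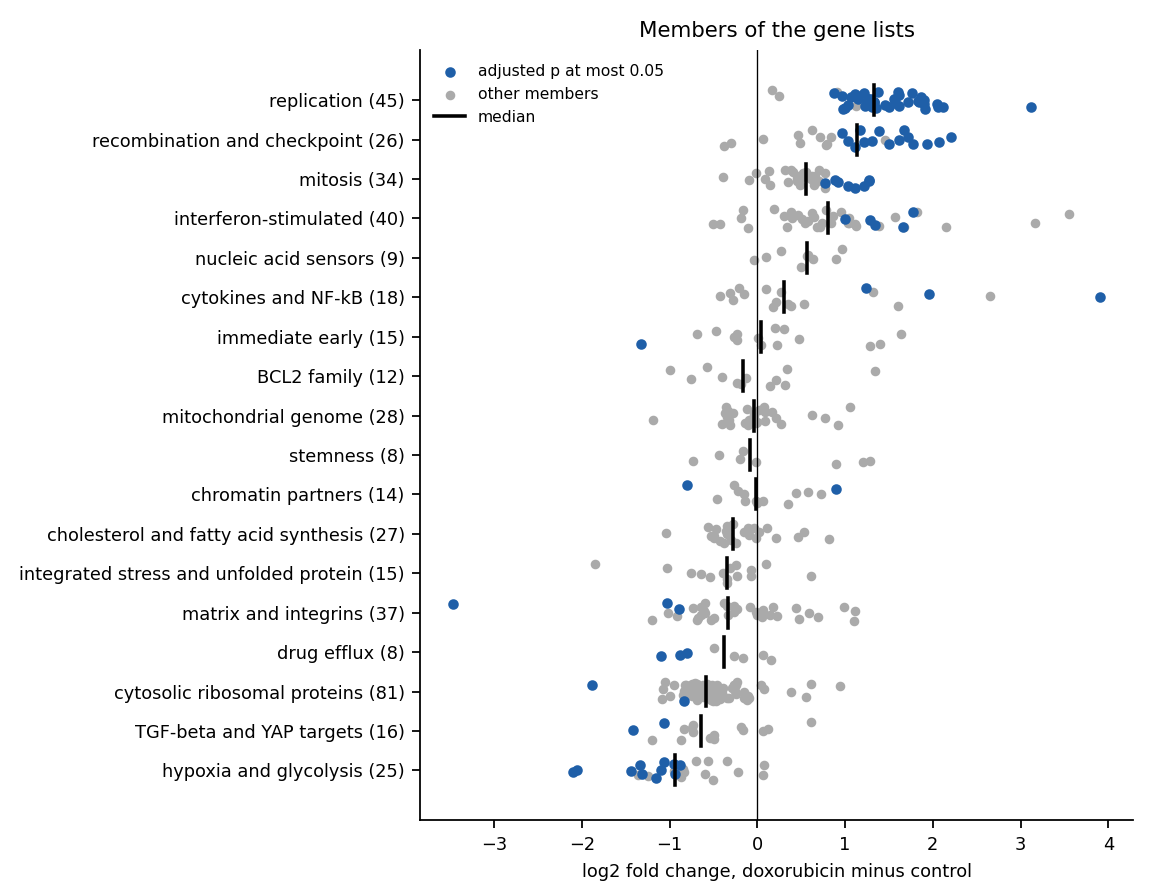
Log2 fold change (doxorubicin minus control) of each tested member of 18 gene lists, with the number of tested members in brackets. Blue points passed the test, grey points did not, and black bars are medians, which run from 1.33 for replication to -0.94 for hypoxia and glycolysis. Total count scaling shifts all genes by a median of 0.15, with which the medians of stemness, chromatin partners and the mitochondrial genome, near 0, change sign.

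Interferon-stimulated genes differed between the doxorubicin libraries. Of 40 tested genes 5 were higher and 0 lower, with a median log2 fold change of 0.81. The median log2 ratio was 0.24 in the first doxorubicin library and 1.02 in the second. OAS3, a sensor of double-stranded RNA, was high in both, with 30.1 and 35 CPM in the controls and 102 and 104 CPM with doxorubicin. It was steady, and its log2 fold change was 1.66 with a standard error of 0.232 and an adjusted p of 0.006 in edgeR's quasi-likelihood test. SAMD9, an antiviral factor, had 17.7 and 37.1 CPM in the controls and 68.8 and 117 CPM with doxorubicin, and its neighbour SAMD9L had 21.4 and 32.5 CPM against 55 and 81.1 CPM. Both calls were lost without the first control or the second doxorubicin library. PARP14, an ADP-ribosyltransferase, had 54 and 54.3 CPM against 89.4 and 126 CPM and lost its call without either control or the second doxorubicin library. IFI6, named after its values were seen as the remaining gene of the 5, had 22.3 and 18.8 CPM against 32.5 and 66.3 CPM. RSAD2, the antiviral enzyme viperin, shows the contrast between the libraries with 0.763 and 1.04 CPM in the controls, 1.39 CPM in the first doxorubicin library and 13.7 CPM in the second. ISG15, a ubiquitin-like protein, had 126 and 87.9 CPM in the controls, 114 CPM in the first treated library and 324 CPM in the second. RSAD2 and ISG15, also picked after their values were seen, did not pass. The list's count was 1 without the second doxorubicin library, with a median of 0.26, and 20 without the first, with a median of 1.03. Without the first control it was 1 and without the second 3. It was 9 in DESeq2, 12 under total count scaling and 16 with a replicate block. The interferon-stimulated response element, read as GAAA repeated after a gap of 2 bases, stood in 21 of 33 promoters of the list (63.6%) and in 2.87% of all, against 2.56% in the higher genes. The promoters of SAMD9 (chr7:93117930-93118229, minus strand) and OAS3 (chr12:112938224-112938523, plus strand) belong to the called genes of the list with the largest rises, with the element in capitals:
SAMD9: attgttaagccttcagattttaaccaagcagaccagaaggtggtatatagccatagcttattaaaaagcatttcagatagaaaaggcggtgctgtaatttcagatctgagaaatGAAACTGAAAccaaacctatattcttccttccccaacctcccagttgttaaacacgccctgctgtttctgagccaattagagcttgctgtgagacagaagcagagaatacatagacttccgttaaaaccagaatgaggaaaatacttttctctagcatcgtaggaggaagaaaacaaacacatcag
OAS3: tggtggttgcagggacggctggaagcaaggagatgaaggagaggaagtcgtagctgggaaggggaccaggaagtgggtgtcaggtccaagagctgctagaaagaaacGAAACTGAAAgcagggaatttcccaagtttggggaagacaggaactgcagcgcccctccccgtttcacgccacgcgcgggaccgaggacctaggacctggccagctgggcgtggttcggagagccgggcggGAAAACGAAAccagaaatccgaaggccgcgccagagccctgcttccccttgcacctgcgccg

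Sensors of nucleic acids upstream of interferon did not pass, 0 of 9 by edgeR against 2 by DESeq2, with 5 higher at an unadjusted p of at most 0.05 and a median log2 fold change of 0.57. In edgeR 4 were higher with a replicate block and 2 without the first doxorubicin library. IFNB1, which encodes interferon beta, had 0 counts in all 4 libraries, and IFNL1 had 0 and 0 counts in the controls and 1 and 12 with doxorubicin. Among 18 tested cytokine and NF-kB genes, 3 were higher and 0 lower. CXCL11, an interferon-inducible chemokine, had 2 and 4 counts in the controls and 18 and 327 counts with doxorubicin, which is 0.382 and 0.696 CPM against 3.13 and 12.5 CPM. IL11, a cytokine of the IL-6 family, had 15.1 and 7.66 CPM against 47.9 and 40.7 CPM, high in both treated libraries. TNFAIP3, an NF-kB target that damps the same pathway and overlaps another gene, had 9.35 and 8.7 CPM against 18.1 and 24 CPM. The count of 3 was 0 without the second doxorubicin library, where edgeR called 117 genes in all, and 1 without either control. IL11 lost its call also without the second control, CXCL11 without the first and TNFAIP3 without either. Of 7 tested antigen presentation genes 0 passed edgeR's test, 1 passed DESeq2's and 1 had an unadjusted p of at most 0.05.

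**Figure D4:**
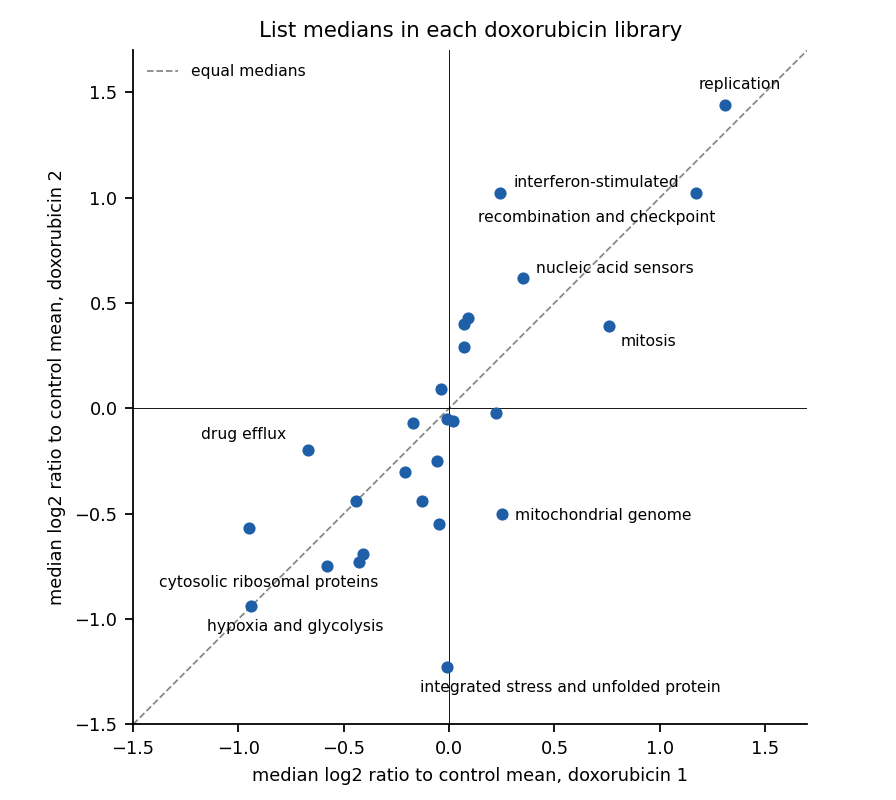
Median log2 ratio of the members of gene lists to the mean of the controls, in the first (x axis) and the second (y axis) doxorubicin library. Points on the dashed line are equal in both. Replication (1.31 and 1.44) and hypoxia and glycolysis (-0.94 in both) lie near the line, while interferon-stimulated genes (0.24 and 1.02), the integrated stress list (-0.01 and -1.23) and the mitochondrial genome (0.25 and -0.50) lie off it.

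Of 37 tested matrix and integrin genes, 3 were lower and 0 higher, with a median log2 fold change of -0.33. DESeq2 called 6 lower and 1 higher, and the fit with a replicate block 8 lower and 3 higher. A fit of only genes without overlap on the other strand called 0 of 19. ITGA10, a collagen-binding integrin chain that overlaps another gene, had 28 and 36.4 CPM in the controls and 5.04 and 1.72 CPM with doxorubicin. Its log2 fold change of -3.47 (standard error 0.453, edgeR quasi-likelihood test with adjusted p 0.0049) was the lowest value among the genes of all 33 lists in this fit, and it was steady. ITGA3, a laminin-binding chain, had 2749 and 1925 CPM against 1351 and 933 CPM, and FN1, fibronectin, had 934 and 1009 CPM against 614 and 433 CPM. ITGA3 lost its call without the first control or either doxorubicin library and FN1 without any 1 of the 4. The list's count was 1 without the second doxorubicin library, 2 without the first and 2 without the first control. TIMP3, an inhibitor of matrix proteases, fell from 347 and 469 CPM to 167 and 162 CPM, and HAS2, a hyaluronan synthase overlapped on the other strand, from 9.92 and 8.35 CPM to 2.43 and 1.53 CPM. These were the 2 lower genes of 12 tested in a list of proteases, their inhibitors and hyaluronan synthases, a count of 0 without the second doxorubicin library and 4 without the second control. In the TGF-beta and YAP list 2 of 16 were lower and 0 higher (8 lower at an unadjusted p of at most 0.05), with a median log2 fold change of -0.64. TGFB2, a TGF-beta ligand, had 93.3 and 92.9 CPM against 34.6 and 34.9 CPM, and CCN2, a target of YAP, 196 and 154 CPM against 80.6 and 86.9 CPM. Both overlap another gene. TIMP3, HAS2 and TGFB2 lost their calls without the second doxorubicin library, and CCN2 without the first control or either doxorubicin library. That count was 0 without the second doxorubicin library, 5 without the second control and 1 without the first control or the first doxorubicin library.

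Of 9 tested keratins 3 were lower and 1 was higher. KRT18, which pairs with KRT8 in simple epithelia and overlaps another gene, had 836 and 689.5 CPM in the controls and 386 and 378 CPM with doxorubicin, a log2 fold change of -1.0. KRT7, overlapped as well, had 613 and 414 CPM against 187 and 283 CPM, and KRT81, a hair keratin, 29.4 and 19.3 CPM against 7.29 and 8.96 CPM. These 3 calls were lost without the first control or either doxorubicin library. KRT17 of basal epithelia had 0 and 0 counts in the controls and 6 and 113 counts with doxorubicin, which was at least 4.89-fold higher against a floor of 3 counts per library and at least 1.9-fold with the first doxorubicin library alone. Its call was lost without either control or the second doxorubicin library. It did not enter the fit of only the 4 libraries or that of genes with at least 10 counts in every library. Of 9 tested mesenchymal genes, ACTA2 (smooth muscle actin) was higher, with 7.63 and 5.39 CPM against 21.7 and 21.8 CPM, and TAGLN (transgelin) and FN1 were lower. ACTA2 and TAGLN overlap another gene. ACTA2 was steady, and TAGLN, with 45.2 and 44.9 CPM against 16.5 and 9.23 CPM, lost its call without the second doxorubicin library. The 2 lower genes were 1 without either control or the first doxorubicin library and 0 without the second. In the epithelial list KRT18 was the 1 lower gene of 9 and 0 were higher.

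Drug efflux genes included 3 lower and 0 higher of 8 tested. MVP, the major vault protein, had 373 and 289 CPM in the controls and 155 and 154 CPM with doxorubicin. ABCC3 had 337 and 294 CPM against 179 and 184 CPM, and ABCC4 had 49 and 57.8 CPM against 32 and 26.3 CPM. Both treated libraries were the lower in each of these 3 genes, as in every gene called lower. The count was 0 without the first control, 0 without either doxorubicin library and 2 without the second control, where ABCC4 lost its call. ABCB1, the best known pump for doxorubicin, was too low to test, with 0 and 0 counts in the controls and 3 and 21 with doxorubicin.

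Some lists differed widely between replicates. The integrated stress and unfolded protein list had 0 calls of 15 by edgeR and by DESeq2, with 3 lower at an unadjusted p of at most 0.05, and a median log2 ratio of -0.01 in the first doxorubicin library and -1.23 in the second. ATF4, its central transcription factor, had 475 and 161 CPM in the controls and 386 and 155 CPM with doxorubicin. TRIB3, a target of ATF4, had 146 and 44 CPM against 67.9 and 26.7 CPM. In both genes the first library of each group was the higher. The list's median was 0.28 without the first control and -0.83 without the second, and 2 of its genes were lower without the second control and 2 without the first doxorubicin library. The 28 tested transcripts of the mitochondrial genome had 0 calls by edgeR and by DESeq2, with 1 higher and 1 lower at an unadjusted p of at most 0.05, and medians of 0.25 and -0.50 in the doxorubicin libraries. Cytosolic ribosomal protein genes had a median log2 fold change of -0.58, with 2 of 81 lower by edgeR (2.47%, against 2.15% of all tested genes), 15 lower by DESeq2 (against 3.73% of all) and 0 higher by either. Their summed level was 45395 and 28197 CPM in the controls and 26484 and 21922 CPM with doxorubicin, so the first control stood apart from the other 3 libraries. Without it the median was -0.13, and without the second control it was -0.92 with 25 lower genes. RPL22L1, a paralogue of RPL22, fell from 67.2 and 45.6 CPM to 15.8 and 14.9 CPM and was steady, whereas RPS3A, overlapped on the other strand, lost its call without the first control or either doxorubicin library. The log2 difference of the first from the second replicate correlated between groups, at a Pearson r of 0.21 between control and doxorubicin over 15697 genes. The correlation with the cells labelled ZMYND8 was 0.35 for the control and 0.41 for doxorubicin. With the replicate number as a block in edgeR, 4 integrated stress genes were lower, and 37 ribosomal protein genes were lower and 1 higher. The labels do not say what the replicate number stands for or that such libraries are paired.

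The largest rises outside these lists, among genes with no overlap on the other strand and an average log2 CPM of at least 2, were of mixed function. MYBL2, which encodes the transcription factor B-Myb, had 35.5 and 23.7 CPM in the controls and 155 and 125 CPM with doxorubicin. FAM111B, a protease expressed in S phase, had 9.73 and 16.7 CPM against 68.8 and 66.7 CPM. CGN, the tight junction protein cingulin, had 3.63 and 1.74 CPM against 18.2 and 27.3 CPM, an 8.65-fold rise. ADGRB2, an adhesion receptor, had 6.87 and 3.31 CPM against 27.6 and 34.2 CPM, and EML6 had 2.86 and 3.13 CPM against 17.2 and 17.4 CPM. These 5 genes were steady. STOX1 had 0.763 and 0.696 CPM against 6.6 and 5.68 CPM and lost its call without the second doxorubicin library. TNFRSF13C, the BAFF receptor, had 1.14 and 1.22 CPM against 8.86 and 4.04 CPM and lost it without either control or the first doxorubicin library.

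Another 3 of the largest rises rested mainly on the second doxorubicin library. CH25H, the interferon-inducible cholesterol 25-hydroxylase, had 1.53 and 0.87 CPM in the controls, 2.78 CPM in the first treated library and 17 CPM in the second. RPL12P14, a ribosomal pseudogene, had 1.91 and 1.04 CPM against 5.21 and 14.8 CPM. RN7SL5P, a 7SL RNA pseudogene, had 1 and 1 counts in the controls and 9 and 289 counts with doxorubicin, a ratio of 51.2 with a 95% counting interval from 14 to 425 (exact binomial). The interval covers counting error only, and the ratio pools libraries of unequal depth. By library, the level was 0.191 and 0.174 CPM in the controls and 1.56 and 11 CPM with doxorubicin. CH25H and RN7SL5P lost their calls without either control or the second doxorubicin library, RPL12P14 without the second control or the second doxorubicin library.

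Among the largest falls, COL1A2, a chain of type I collagen, had 33.2 and 57.9 CPM in the controls and 6.6 and 8.27 CPM with doxorubicin. GGT5, a gamma-glutamyltransferase that cleaves leukotriene C4, had 29.8 and 33.2 CPM against 5.9 and 3.66 CPM. SIGIRR, a damping receptor of the interleukin-1 family, had 92.3 and 99 CPM against 22.2 and 12.5 CPM. RHOJ, a small GTPase, had 11.3 and 15.5 CPM against 2.08 and 2.82 CPM, and OXTR, the oxytocin receptor, 23.5 and 15.3 CPM against 3.99 and 5.26 CPM. These 5 genes were steady. MT1E, a metallothionein, fell from 189.7 and 141 CPM to 56.1 and 32.4 CPM, a call lost without the second doxorubicin library. EFNB3, an ephrin, FHIT, a large fragile-site gene, and TMEM187 lost theirs without that library or the first control. ANGPT1, the angiopoietin ligand of TIE2, had 8.97 and 16.9 CPM against 1.39 and 3.51 CPM and lost its call without the second control or either doxorubicin library. MYC, the 1 lower gene of 15 tested immediate early genes, had 319 and 144 CPM in the controls and 109 and 75.7 CPM with doxorubicin, a call lost without the first control or the second doxorubicin library, and 2 other genes of that list were higher in the fit without the first control.

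Of 29 genes that the study names, 23 were tested. By edgeR's test 6 of these were higher and 0 lower, BRCA1 and the genes CLSPN, MCM10, RFC3, CDC25A and EZH2. CLSPN, the checkpoint adaptor claspin, had 28.6 and 43.3 CPM in the controls and 127 and 173 CPM with doxorubicin, with an exon opposite another gene. MCM10, an initiation factor of replication, had 10.9 and 22.8 CPM against 61.8 and 65.4 CPM, and both genes were steady. RFC3, a clamp loader subunit, had 22.9 and 27.5 CPM against 60.1 and 66.9 CPM and lost its call without the second doxorubicin library. CDC25A, the phosphatase that frees CDK2, had 9.54 and 23.8 CPM against 45 and 56.4 CPM and lost it without that library or the first control. EZH2, the methyltransferase of histone H3 lysine 27, had 57.1 and 60 CPM against 105 and 114 CPM and lost it without any 1 of the 4. ZMYND8, which overlaps another gene, had 219 and 199 CPM in the controls and 182 and 123 CPM with the drug. The log2 fold change of -0.46 had a standard error of 0.235 and did not pass edgeR's quasi-likelihood test (adjusted p 0.28). CDH1, the epithelial cadherin and overlapped as well, had 5 and 7 counts in the controls, 7 in the first doxorubicin library and 208 in the second, and did not pass. CD44, VIM, SNAI2, ZEB1, SOX9, BMI1, NOTCH1, EPCAM, ABCC1, KDM5C, KDM6A and KDM6B did not pass either, with log2 fold changes from -0.49 (ABCC1 and VIM) to -0.01 (BMI1 and KDM6A). The log2 fold changes of KMT2A, ABCC2 and CD24 were 0.35, 0.06 and 1.21, and these 3 did not pass. NANOG had 0 counts in all 4 libraries, SOX2 had 1 count in the first control only, and TWIST1 and ALDH1A1 had at most 21 counts in any library. Among chromatin partners of ZMYND8, KDM5B, a demethylase of histone H3 lysine 4, was the 1 lower gene of 14, with 88.7 and 92 CPM against 58 and 46.6 CPM, and its call was lost without any 1 of the 4 libraries.

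The response was set beside that of inducible GFP cells at the same dose and time, whose libraries are independent of these 4. System, line, doxycycline, strand handling and depth differ together between the experiments and cannot be told apart. Of the 468 higher genes 412 (88.0%) were also higher in GFP cells by edgeR's test and 0 were lower, and of the 337 lower genes 287 (85.2%) were also lower and 0 higher. In GFP cells 18.4% of all 20273 genes tested there were higher and 17.2% lower. Among the 15695 genes tested in both, 2611 were higher and 3296 lower in GFP cells. The shared genes are 15.8% and 8.71% of these. The GFP calls come from the joint fit of 8 libraries, and the 468 and 337 from the fit of 6, so these shares mix 2 fits. In the joint fit the transient contrast called 2617 genes in either direction and the GFP contrast 7213. Across 15695 genes, which are not independent replicates, the log2 fold changes of both systems had a Pearson r of 0.61. Replication genes had a median of 1.25 in GFP cells with 43 of 45 higher, and hypoxia and glycolysis genes a median of -1.25 with 22 of 25 lower. Interferon-stimulated genes had a median of 1.00 with 26 of 41 higher in GFP cells. A test of the difference between both responses called 112 of 20273 genes (0.552%), 75 with the higher value in the transient system and 37 with the lower. DESeq2's count was 498, and 3166 genes had an unadjusted p of at most 0.05 in edgeR. By list, edgeR's calls held 3 matrix and integrin genes, 2 hypoxia and glycolysis genes, 2 cholesterol and fatty acid synthesis genes and at most 1 gene in each other list. In 96 of the 112 the transient change was the smaller in size. Among the 112 were 6 of the 468 higher and 9 of the 337 lower genes, against 0.552% of all genes tested for the difference. The count of 112 was 0 to 4 when a GFP library was left out, 358 and 1783 without the first or second control, and 39 and 623 without the first or second doxorubicin library. A separate fit that held only genes without overlap on the other strand (11231 tested) called 20. Of the 112 genes, 57 (50.9%) have such an overlap.

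**Figure D5:**
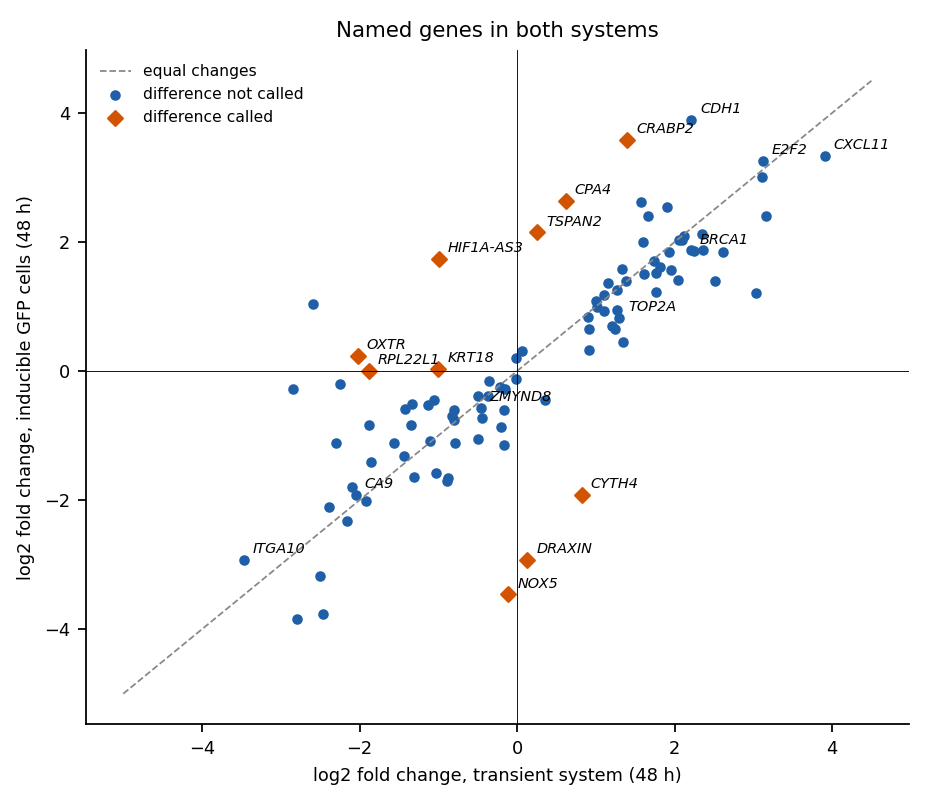
Log2 fold change with doxorubicin at 48 h in the transient system (x axis) and in inducible GFP cells (y axis), for 99 named genes that have more than 3 counts in some library of every group. Orange diamonds are the 10 plotted genes whose difference between systems passed edgeR's test, blue points the others, and the dashed line marks equal changes. E2F2, BRCA1 and ITGA10 lie near the line, and OXTR, KRT18 and RPL22L1 lie below 0 on the x axis and near 0 on the y axis.

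The shares of called genes by length, type and overlap are given without a test between classes. Among genes that span under 10 kb 2.19% were higher and 2.41% lower, from 10 to 30 kb 3.94% and 1.59%, from 30 to 100 kb 3.65% and 1.65%, and over 100 kb 1.63% and 3.46%. Protein-coding genes held 413 of the higher and 285 of the lower genes out of 12155 tested. Long non-coding RNAs held 41 and 34 of 2576, and pseudogenes 10 and 12 of 757. Of genes with an overlap on the other strand 2.64% were higher and 1.89% lower, and of the others 3.30% and 2.38%.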

How the data were processed

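The series holds 18 poly(A) libraries of MDA-MB-231 cells, of which 2 doxorubicin and 2 control libraries of the transient system are compared here. By the file headers, the authors counted raw read pairs of genes in reverse-stranded mode, using featureCounts 1.6.4 and the GENCODE 31 annotation. Here all 6 transient libraries were fitted in edgeR 4.0.16 (R 4.3.3) with TMM factors, edgeR's filter by expression and 1 mean per group. The quasi-likelihood test was adjusted over all 15697 genes by Benjamini-Hochberg. Levels are TMM-scaled CPM computed from the counts, per-library log2 ratios add 0.5 CPM, and precision is set by depth and by 2 libraries a group. The difference between systems is the interaction in a joint fit of 8 libraries. A fold against a group at 0 uses a floor of 3 counts per library.

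The members and the 33 gene lists were chosen with earlier results of these data known. Named genes are at most 12 rises and 12 falls with the largest change (adjusted p of at most 0.05, absolute log2 fold change of at least 1, groups that do not overlap, average log2 CPM of 2 or more, no exon opposite another gene), at most 4 called genes per list with the lowest adjusted p, 29 genes the study names, and at most 5 genes in each direction for the difference between systems. The fit was tested on 5 draws of simulated data, where it recovered 41.4% of 2-fold and 93.4% of 4-fold changes, with 5.9% false calls. A gene that did not pass may thus have changed by 2-fold. The simulated libraries were independent, with a spread set by a gene's level alone and the same change in both treated groups. In the real data the second treated libraries were almost the same, and replicate differences correlated between groups. The simulated rates of recovery and false calls may therefore not hold for the real libraries. Alternatives were DESeq2 1.42.0, RLE and total count scaling, other filters, fewer libraries, a replicate block, and each library left out. Overlaps on the other strand come from the exons of the count table, and gene types from GENCODE release 44. Some items are not reported here.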

Additional observations from a re-analysis of the deposited data

Results flagged for a closer look

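The response to doxorubicin differed between the transient system and inducible GFP cells for 112 genes by the interaction test in edgeR. Values below are the log2 fold change in the transient system minus that in GFP cells, and the cause of each difference was not tested. Differences above 0 were found for NOX5 (3.28), DRAXIN (3.02) and CYTH4 (2.71), which fell in GFP cells and did not pass in the transient system. NOX5 had 30.4 and 33.8 CPM in GFP cells and 2.55 and 3.25 CPM after doxorubicin, against 4.96 and 5.92 CPM in transient controls and 6.77 and 3.81 CPM with doxorubicin. TENM2 (7.51) and ST6GAL1 (3.60) were near 0 counts in the transient system, so their fitted differences are no bound. TENM2 had 105 and 100.1 CPM in GFP cells but 0 and 0 counts in the transient controls, and 3 and 8 counts with doxorubicin. ST6GAL1 had 56.5 and 60.7 CPM in GFP cells and 0.382 and 0.696 CPM in the transient controls.

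Differences below 0 were found for CRABP2 (-2.17), CPA4 (-2.03), TSPAN2 (-1.89) and HIF1A-AS3 (-2.71), which rose in GFP cells. CRABP2 had 3.44 and 3.48 CPM in GFP cells and 41.5 and 41.3 CPM after doxorubicin, and in the transient system 5.53 and 4.18 CPM against 10.9 and 14.3 CPM, where its rise was also called, a call lost without either control or the second doxorubicin library. OXTR (-2.25), RPL22L1 (-1.88) and KRT18 (-1.04) fell in the transient system and did not pass in GFP cells. RPL22L1 had 32.5 and 28.5 CPM in GFP cells and 31.1 and 29.7 CPM after doxorubicin. The count of 112 was 0 without the second untreated GFP library or either treated one, 4 without the first untreated GFP library, 39 without the first doxorubicin library, 623 without the second, 358 without the first control and 1783 without the second.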

How the results depend on the processing

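The number of doxorubicin calls in edgeR, 805 in the fit of all 6 libraries, was 426 when the fit held only genes without overlap on the other strand (8191 genes tested), 1505 without a filter (37454 tested) and 287 without both second treated libraries. With 1 library left out the count ran from 117 to 750. With the replicate number as a block it was 2410, which treats replicates of equal number as paired although the labels give no such pairing. The 1366 genes of the study's criterion became 878 with at least 10 counts in every library, 2101 without a filter, 799 without overlap on the other strand, 497 at a log2 fold change of 1.5 and 640 with an adjusted p, and from 1090 to 1741 with 1 library left out. The 112 differences between systems became 498 in DESeq2, 48 with at least 10 counts in every library, 20 without overlap on the other strand and 64 under total count scaling, and from 0 to 1783 with 1 library left out. Where fewer or more genes or libraries entered, that is part of the change, and the cause was otherwise not tested.

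Of the 80 named genes that passed, 79 passed in DESeq2, 73 under total count scaling, 67 with only the 4 libraries, 30 without the second doxorubicin library and 46 without the first control, with 0 reversed. That none were reversed follows from the choice of called genes, whose groups did not overlap, and shows no stability. The floor of 3 counts is a chosen value and not a limit of detection. It equals up to 0.572 CPM in a control library and 0.521 CPM in the first doxorubicin library, against 0.114 CPM in the second.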

Other observations

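Replication-dependent histones, whose transcripts mostly lack a poly(A) tail, were poorly covered: 19 of 87 genes were tested, 2 were higher and 0 lower. H2BC11 had 10.7 and 9.05 CPM in the controls and 22.6 and 35.7 CPM with doxorubicin, and H2AC11 had 6.11 and 6.09 CPM against 14.8 and 12.6 CPM. Both calls were lost without the second doxorubicin library, and that of H2AC11 without any 1 of the 4 libraries. Of 27 cholesterol and fatty acid synthesis genes 0 passed edgeR's test and 1 passed DESeq2's, with 4 at an unadjusted p of at most 0.05 (1 higher, 3 lower) and a median log2 fold change of -0.28. SCD, the stearoyl desaturase, had 2092 and 3018 CPM in the controls and 1219 and 1273 CPM with doxorubicin and did not pass. Of 8 tested heat shock genes 0 passed edgeR's test, 0 passed DESeq2's and 0 had an unadjusted p of at most 0.05, and the median of -0.11 became 0.03 under total count scaling, which shifts the median of all genes by 0.15. Of 8 tested stemness genes 0 passed edgeR's test and 0 passed DESeq2's, with 3 at an unadjusted p of at most 0.05, and the median of -0.08 became 0.06 with the same shift. In edgeR 1 stemness gene was higher and 1 lower with a replicate block, and 1 was higher under total count scaling. In the basal marker list 2 of 10 genes were lower, KRT18 and CAV1, a caveolin with 842 and 907 CPM against 535 and 476 CPM, whose call was lost without any 1 of the 4 libraries.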
